A study of Mus musculus with 6 samples.

Results

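AP-1 and EGR immediate early transcription factors were described in mouse embryonic fibroblasts with and without p53. The 10 genes were chosen by symbol, as the rows of the deposited count table named Fos, Fosb, Fosl1, Fosl2, Jun, Junb, Jund, Egr1, Egr2 and Ier3. They are 10 of the 23420 genes in the table, and all 10 were among the 13044 genes with enough counts to be tested. No measured value entered the choice, but the list was drawn up with earlier results of these data known.

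The cells were mouse embryonic fibroblasts of mixed 129/Sv-C57BL/6 strain that all carried the adenoviral oncogene E1A and the activated Ras gene HrasG12V. There were 3 lines, and each line gave 1 library per guide, so there were 6 libraries in all. The sgp53 cells carried a single guide RNA against p53, labelled sgp53(1): lines 1 and 3 are labelled p53 null, and line 2 functionally inactive. The controls had a non-targeting guide, sgNTC, and are labelled p53 wild-type. Both groups shared E1A, the Ras gene, 5% oxygen, 24 h of recovery after plating and detachment with trypsin before lysis. The library names give lines 2 and 3 a shared number and line 1 another, without saying what it marks, so lines 2 and 3 may share an origin. The labels do not say whether a line was 1 clone or came from its own embryo, so the p-values measure only the spread between these samples.

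Immediate early genes are switched on within minutes of growth factor or stress signals, without new protein synthesis. ERK, JNK and p38 kinases act on factors already bound at their promoters, such as SRF with its ETS-type partners, and the RNAs are short-lived. FOS proteins pair with JUN proteins through a leucine zipper to form AP-1, which binds DNA and relays Ras signalling in transformed fibroblasts. EGR1 is a zinc finger factor of the same early response, known in mouse fibroblasts as a regulator of p53 expression.

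Short DNA elements near these genes were read from reference sequence, because they show which members carry the letters that EGR factors and RNA decay factors are known to recognise. RefSeq promoter windows were at hand for 8 of the 10 genes, not for Fosl1 and Egr1. Each ran from 250 bases before to 50 after a RefSeq start of the gene (GRCm38.p6). An EGR motif, GCGNGGGCG, stood in the windows of Fosl2 and Fosb and in 6.27% of the 27025 genes with such a window. These are the windows of a gene called higher in sgp53 and of a gene whose level was lower there, shown 5′ to 3′ on the gene's own strand with the EGR motif in capitals. The Fosl2 window is chr5:32136222-32136521 on the plus strand, and its motif begins 79 bases before the RefSeq start. GENCODE starts the gene earlier, at 32135801, so by that model the whole window lies inside the gene.
Fosl2: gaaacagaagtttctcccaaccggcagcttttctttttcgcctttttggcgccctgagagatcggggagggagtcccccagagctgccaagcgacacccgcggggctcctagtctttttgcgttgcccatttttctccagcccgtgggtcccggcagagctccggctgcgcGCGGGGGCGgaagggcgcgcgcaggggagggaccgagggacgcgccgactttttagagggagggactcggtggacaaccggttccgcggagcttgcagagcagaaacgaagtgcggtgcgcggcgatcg
The Fosb window is chr7:19309996-19310295 on the minus strand, and its motif begins 50 bases before the RefSeq start.
Fosb: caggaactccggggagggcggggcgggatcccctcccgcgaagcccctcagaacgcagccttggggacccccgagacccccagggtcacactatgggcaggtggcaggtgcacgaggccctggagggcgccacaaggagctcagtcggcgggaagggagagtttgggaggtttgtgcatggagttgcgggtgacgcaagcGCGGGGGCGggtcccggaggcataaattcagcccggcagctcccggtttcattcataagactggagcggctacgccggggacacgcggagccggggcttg
In both windows the motif overlaps a GC box, GGGCGG, an element found in 38.2% of genes. No window of the 8 genes held the AP-1 motif TGANTCA (8.97% of genes) or the CRE TGACGTCA (2.03%), and a CArG box, the SRF element, stood in windows of Egr2 only (1.81% of genes). The Jund window, chr8:70697489-70697788, ends before the GENCODE start of Jund at 70698949. The bases around that GENCODE start were not read. Each motif was sought on both strands. A match is a string of letters and no measured binding site, and a window without one says nothing of the factor.

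The second set is the AU-rich nonamer TTATTTATT, an element of unstable RNAs, in the 3′ untranslated region of the GENCODE M21 transcripts. It occurred in 2 of the 10 genes, Fos and Fosl2, and in 7.66% of 21020 genes with such a region. The longest region of each gene was read, 815 bases in Fos and 4653 in Fosl2, against a median of 961. A longer region has more room for a match, and length was not allowed for. The 30 bases around each match are shown 5′ to 3′ with the nonamer in capitals.
Fos: tgttttcaatTTATTTATTaagatggattc
Fosl2: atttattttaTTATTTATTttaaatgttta
Copies of the shorter pentamer ATTTA ranged from 1 in Fosb, Fosl1 and Jund to 8 in Fosl2, whose region is the longest of the 10. Its share over all genes was not counted, so these copies are a description only.

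The libraries held between 27503577 and 35860866 counts. Levels are given as CPM, read counts scaled to one common normalized library total. Trp53, the targeted gene, was at 71.1, 72.0 and 113 CPM in sgp53 lines 1, 2 and 3, against 206, 277 and 253 CPM in sgNTC, and its target Cdkn1a was at 86.3 ± 13.6 CPM in sgp53 and 697 ± 44.1 CPM in sgNTC (SD, n = 3 each). The sgp53 library of line 3 stood apart in Rn45s, the ribosomal RNA precursor, at 3338 CPM against 636 to 864 CPM in the other 5. All 11 fibroblast markers were tested and 3 were called higher in sgp53. These were Col1a1, Col1a2 and Col3a1, and Col1a1 was at 412, 221 and 744 CPM in sgp53 lines 1, 2 and 3, against 12.6, 5.18 and 8.91 CPM in sgNTC. The same sgp53 library of line 3 stood apart in other fibroblast markers, with Pdgfra at 131 CPM against 12.9 to 29.7 CPM in the other 5, Thy1 at 53.9 against 0.24 to 4.30 CPM, S100a4 at 99.4 against 1.74 to 15.8 CPM and Prrx1 at 242 against 16.2 to 65.9 CPM. It also held the highest Fosl2, Egr2 and Jun and the lowest Egr1 and Junb of all libraries. The summed fibroblast level, mostly Vim and Fn1, was 7097 to 10097 CPM in sgp53 and 5688 to 6701 CPM in sgNTC. Vim went the other way, at 2562, 2502 and 3001 CPM in sgp53 lines 1, 2 and 3. In sgNTC it was at 2754, 3257 and 3354 CPM. Fn1 was at 3929, 3887 and 4418 CPM in sgp53 and 3416, 2220 and 3180 CPM in sgNTC. Twist1 was at 54.6, 54.4 and 63.9 CPM in sgp53 and 53.3, 80.9 and 53.3 CPM in sgNTC. Of the fibroblast markers 0 were called lower. The 6 epithelial markers summed to 55.2 to 71.2 CPM in sgp53 and 89.0 to 146 CPM in sgNTC, with Krt5 at 0 everywhere. Markers of endothelium and of muscle summed to at most 2.65 CPM in any library, neural markers to at most 5.28 CPM, and leukocyte markers to 3.54 to 3.97 CPM in sgp53 and 7.51 to 10.4 CPM in sgNTC, with Emr1 and Cd3e at 0 and the single tested gene, Cd68, called lower. These markers and Rn45s move with the guide or with 1 library, and their part in the results was not tested. In bulk RNA, fewer cells of a kind and less RNA per cell cannot be told apart.

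Of the 10 genes, Egr1 was lower in sgp53, Fosl2 and Jund were higher, and 7 did not pass the test. The test was edgeR's quasi-likelihood test, and a gene counts as called where its p, adjusted after Benjamini and Hochberg over the 13044 genes, was under 0.05. It called 841 genes (6.45%), 2.76% higher and 3.69% lower. The median log2 fold change was 0.13 over the 10 genes and -0.01 over all tested genes, and the median size without sign was 0.51 and 0.19. Levels in sgp53 and sgNTC did not overlap for 5 of the 10 genes, against 36.8% of all tested genes. Fos, Fosl2 and Jund lay higher in sgp53, as did 17.8% of all genes, and Fosb and Egr1 lower, as did 19% of all genes. No call held with the line as a block. That edgeR fit called 0 of the 10 genes and 2.38% of all genes (0.966% higher and 1.42% lower). DESeq2 without the block called 5 of the 10, 3 higher and 2 lower, and 18.2% of all genes (9.17% higher and 9% lower). Limma-voom called 3 of the 10, Fosl2 higher and Fosb and Egr1 lower, and 5.35% of all genes (2.18% higher and 3.17% lower).

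**Figure D1:**
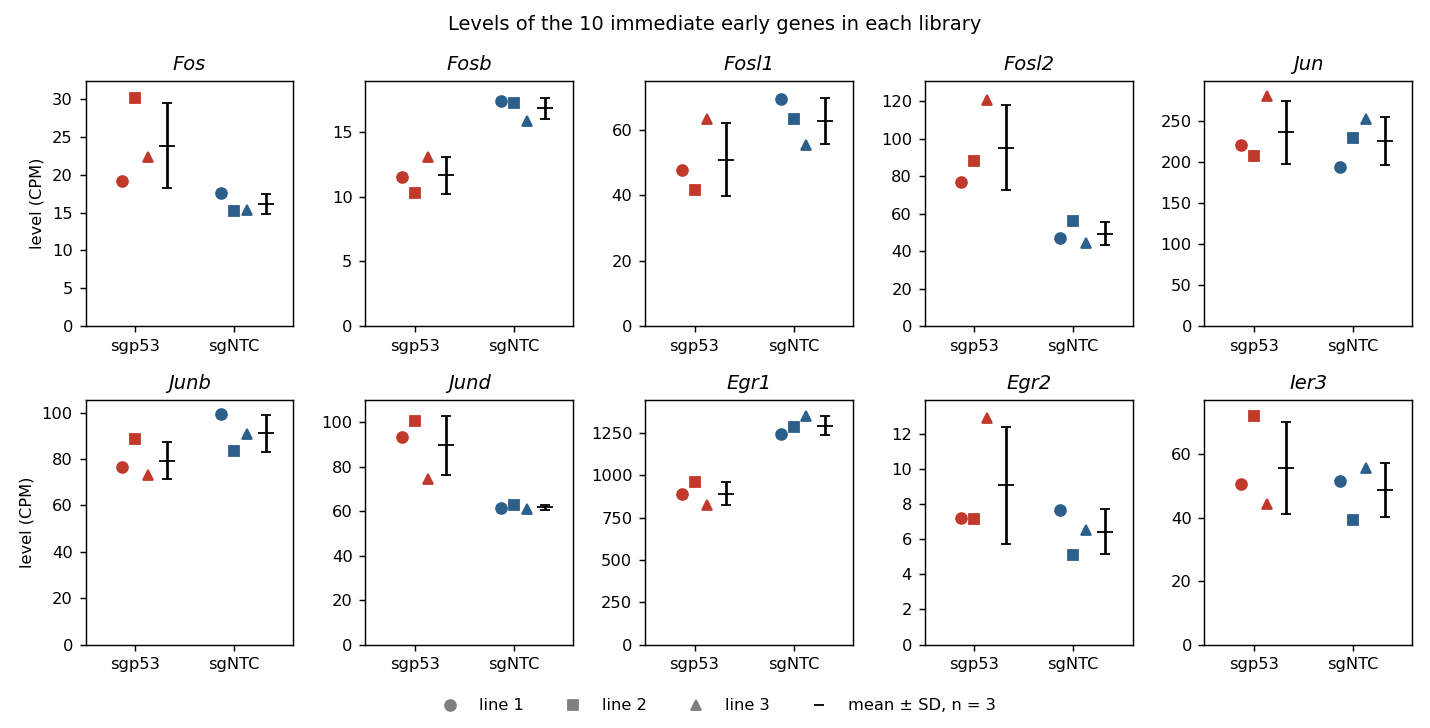
Level of each gene in CPM (linear axis from 0) in the sgp53 (red) and sgNTC (blue) libraries, with a symbol for each line and the mean ± SD of 3 libraries at the right of each group. The sgp53 points lie below all sgNTC points for Egr1 and Fosb, above them for Fosl2, Jund and Fos, and among them for the other 5 genes.

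EGR1, the zinc finger factor, had the most abundant RNA of the set. Egr1 (chromosome 18, 34859823 to 34864984, GRCm38) was at 890.4, 959 and 823 CPM in sgp53 lines 1, 2 and 3, and at 1243, 1283 and 1352 CPM in sgNTC. All 3 sgp53 libraries were below all 3 sgNTC libraries, and the library counts behind them, 23454 to 41369, make counting error small beside the spread between lines. The means were 891 ± 68.0 CPM in sgp53 and 1293 ± 54.8 CPM in sgNTC (SD, n = 3 each). The fitted log2 fold change was -0.54 (SE 0.07, 95% interval -0.71 to -0.37, edgeR adjusted p = 0.0152). Within lines 1, 2 and 3 the log2 difference was -0.48, -0.42 and -0.72. The call was lost with the line as a block (edgeR adjusted p = 0.0605), without sgp53 line 1 (0.0679), without sgNTC line 3 (0.0744) and without any whole line (0.0765 to 0.142). Over 18 alternatives the adjusted p ranged from 2.71e-10 to 0.212 and the fold change was negative in each.

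Egr2, known as Krox-20 for its role in hindbrain patterning and in Schwann cells, was the scarcest of the 10 genes. It lies on chromosome 10, 67535475 to 67542188. Its level was 7.17, 7.12 and 12.9 CPM in sgp53 lines 1, 2 and 3, and 7.66, 5.11 and 6.50 CPM in sgNTC. The groups overlapped, and the highest value was that of sgp53 line 3. The log2 fold change was 0.49 (SE 0.29, 95% interval -0.20 to 1.19), and Egr2 did not pass the test (edgeR adjusted p = 0.304). Without sgp53 line 3, the library that also stood apart in Rn45s and fibroblast markers, it was 0.15.

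The FOS family split by member. Fosl2 encodes FRA-2, a FOS protein without the strong activation domain of FOS, and lies on chromosome 5, 32135801 to 32157842. Its level was 76.9, 88.1 and 121 CPM in sgp53 lines 1, 2 and 3, against 47.2, 56.2 and 44.3 CPM in sgNTC. Every sgp53 library was above every sgNTC library, and sgp53 line 3 was the highest. The means were 95.2 ± 22.7 CPM in sgp53 and 49.2 ± 6.21 CPM in sgNTC, a ratio of 1.94 and a log2 fold change of 0.95 (SE 0.18, 95% interval 0.52 to 1.39, edgeR adjusted p = 0.0358). The within-line differences were 0.70, 0.65 and 1.45. Without sgp53 line 3 the fold change was 0.75 and the call held (edgeR adjusted p = 0.0475). It was lost with the line as a block (0.0784), without any other single library (0.0599 to 0.127) and without any whole line (0.121 to 0.150), and ranged from 1.61e-05 to 0.172 over 18 alternatives.

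Fosl1 encodes FRA-1, the FOS protein best known for accumulating in Ras-transformed cells, and lies on chromosome 19, 5447547 to 5455946. Its level was 47.8, 41.7 and 63.4 CPM in sgp53 lines 1, 2 and 3, and 69.7, 63.5 and 55.6 CPM in sgNTC. The sgp53 library was the lower in lines 1 and 2 and the higher in line 3, and the groups overlapped. The log2 fold change was -0.30 (SE 0.17, 95% interval -0.70 to 0.10, edgeR adjusted p = 0.275). Fosl1 overlaps Ccdc85b on the opposite strand, and since no source used here gives the counting strand, reads of the pair could be mixed; Ccdc85b was at 38.4 to 53.3 CPM in sgp53 and 46.1 to 51.8 CPM in sgNTC.

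Fos itself, the founding AP-1 subunit (chromosome 12, 85473890 to 85477273), was low in both groups. It was at 19.3, 30.1 and 22.3 CPM in sgp53 lines 1, 2 and 3, and at 17.6, 15.3 and 15.4 CPM in sgNTC. The groups did not overlap, but line 1 differed by 0.13 on the log2 scale and line 2 by 0.98. The log2 fold change of 0.57 (SE 0.18) did not pass the test (edgeR adjusted p = 0.0991), and of the other tools DESeq2 called it (DESeq2 adjusted p = 0.0304).

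Fosb, whose protein in a shortened form is long-lived in neurons, lies on chromosome 7, 19302696 to 19310051. It was at 11.5, 10.3 and 13.1 CPM in sgp53 lines 1, 2 and 3, and at 17.4, 17.2 and 15.8 CPM in sgNTC. All sgp53 values lay under all sgNTC values. The log2 fold change was -0.53 (SE 0.12), just outside the threshold (edgeR adjusted p = 0.0564), and it passed in DESeq2 (DESeq2 adjusted p = 0.00666) and limma-voom (limma adjusted p = 0.0491).

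Of the JUN family, Jund was called. JUND is the JUN protein known in mouse fibroblasts for slowing growth and for protecting primary cells from p53-dependent senescence, and its gene lies on chromosome 8, 70698949 to 70700616. It was at 93.5, 100.4 and 74.7 CPM in sgp53 lines 1, 2 and 3, against 61.3, 62.9 and 61.0 CPM in sgNTC. The sgNTC libraries were close together, and each sgp53 library was above them. The means were 89.5 ± 13.3 CPM in sgp53 and 61.7 ± 1.06 CPM in sgNTC, a log2 fold change of 0.54 (SE 0.11, 95% interval 0.27 to 0.80, edgeR adjusted p = 0.0438). The within-line differences were 0.61, 0.67 and 0.29. Without sgp53 line 3 the call held (edgeR adjusted p = 0.0166). It was lost in limma-voom (0.0537), with the line as a block (0.0734), without any other single library (0.0791 to 0.145) and without any whole line (0.0897 to 0.199), and ranged from 0.000384 to 0.199 over 18 alternatives.

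Jun, the founding JUN gene (chromosome 4, 95049034 to 95052222), was the most abundant AP-1 RNA by CPM. It was at 221, 206 and 279.8 CPM in sgp53 lines 1, 2 and 3, and at 194, 229 and 252 CPM in sgNTC. The groups overlapped, and the log2 fold change of 0.07 had a 95% interval of -0.28 to 0.41 (edgeR adjusted p = 0.783). Junb, whose protein counters JUN on some promoters, lies on chromosome 8, 84974484 to 84978718. It was at 76.5, 88.4 and 73.0 CPM in sgp53 lines 1, 2 and 3, and at 99.2, 83.3 and 90.9 CPM in sgNTC. Junb was lower in the sgp53 library of lines 1 and 3 and higher in line 2, and its log2 fold change of -0.20 (95% interval -0.44 to 0.04) did not pass (edgeR adjusted p = 0.232). Junb overlaps Prdx2 on the opposite strand, which was at 234 to 245 CPM in sgp53 and 223 to 239 CPM in sgNTC. GENCODE also places an antisense gene over Jun and another over Jund.

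Ier3, or IEX-1, is an early response gene of NF-kappaB and growth factors that modulates cell survival (chromosome 17, 35821684 to 35822923). It was at 50.6, 71.8 and 44.2 CPM in sgp53 lines 1, 2 and 3, and at 51.5, 39.2 and 55.5 CPM in sgNTC. The groups overlapped, with line 2 higher in sgp53 by 0.87 on the log2 scale and line 3 lower by a difference of -0.33. The log2 fold change was 0.19 (SE 0.21, 95% interval -0.32 to 0.69, edgeR adjusted p = 0.583).

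**Figure D2:**
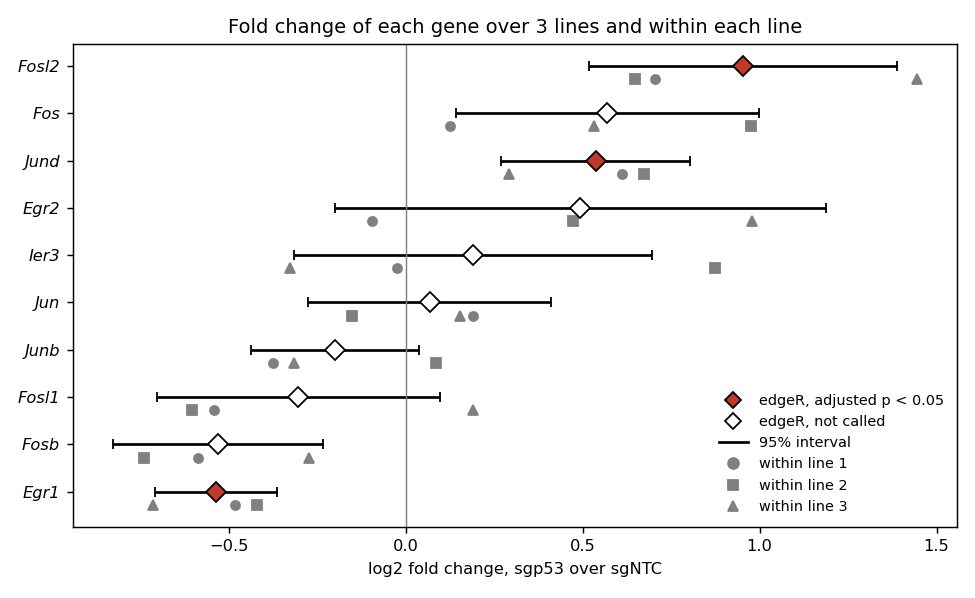
Log2 fold change of sgp53 over sgNTC for each gene, with the edgeR estimate (diamond, red where the adjusted p was under 0.05), its 95% interval and the difference within each line (grey symbols). Fosl2 at 0.95 and Egr1 at -0.54 are the ends of the range, and within-line differences take both signs for Fosl1, Jun, Junb, Egr2 and Ier3.

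Levels of different genes were compared per kilobase of the longest GENCODE transcript. In sgp53 the order of mean CPM per kilobase was Egr1 at 199 ± 15.2, Jun at 73.9 ± 12.2, Jund at 53.7 ± 7.99, Ier3 at 49.1 ± 12.8, Junb at 43.8 ± 4.48, Fosl1 at 27.3 ± 5.99, Fosl2 at 14.6 ± 3.48, Fos at 11.3 ± 2.66, Fosb at 3.08 ± 0.372 and Egr2 at 3.05 ± 1.12. In sgNTC it was Egr1 at 288 ± 12.2, Jun at 70.5 ± 9.21, Junb at 50.4 ± 4.39, Ier3 at 43.1 ± 7.52, Jund at 37.0 ± 0.633, Fosl1 at 33.8 ± 3.79, Fos at 7.64 ± 0.629, Fosl2 at 7.53 ± 0.949, Fosb at 4.44 ± 0.221 and Egr2 at 2.17 ± 0.432 (SD, n = 3 each). Neighbours that differed by less than the larger of their SDs were Jund, Ier3 and Junb, Fosl2 and Fos, and Fosb and Egr2 in sgp53. In sgNTC they were Junb and Ier3, Ier3 and Jund, Jund and Fosl1, and Fos and Fosl2. The place of Jund rests on its length, since RefSeq gives the gene a span of 2878 bases against 1668 in the GENCODE transcript.

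Within the FOS family the shares of Fosl2 and Fos were higher in all sgp53 libraries than in all sgNTC libraries and those of Fosl1 and Fosb lower, but no share passed the test given below. Fosl2 held 25.7 ± 2.03% of the family's RNA per kilobase in sgp53 and 14.1 ± 1.62% in sgNTC, and Fosl1 held 48.4 ± 5.26% in sgp53 and 63.2 ± 1.56% in sgNTC. Fos held 20.5 ± 5.83% in sgp53 and 14.4 ± 0.957% in sgNTC, and Fosb 5.499 ± 0.565% in sgp53 and 8.35 ± 0.367% in sgNTC. The difference in the share of Fos, 6.10 percentage points, was 2.81 without sgp53 line 2. The ratio of Fosl2 to Fosl1 per kilobase was 0.458, 0.602 and 0.543 in sgp53 lines 1, 2 and 3, and 0.193, 0.252 and 0.227 in sgNTC, so it was higher in sgp53 in 3 of 3 lines. The summed family was at 49.6, 52.9 and 66.5 CPM per kilobase in sgp53 and at 57.6, 54.5 and 48.1 CPM per kilobase in sgNTC, and the groups overlapped.

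Within the JUN family the share of Jund was 31.3 ± 4.73% in sgp53 and 23.5 ± 1.22% in sgNTC. Junb held 25.6 ± 2.41% in sgp53 and 31.97 ± 3.53% in sgNTC, and Jun 43.1 ± 6.93% in sgp53 and 44.6 ± 4.13% in sgNTC. With the RefSeq length, chosen after the annotations were seen to differ, Jund held 21.1 ± 3.62% in sgp53 and 15.2 ± 0.877% in sgNTC. Each of 6 of the 7 shares separated the groups completely and reached p = 0.1 in a two-sided exact permutation test, the smallest p that 3 libraries against 3 allow, while Jun had p = 0.9. Adjusted over the 7 shares these were 0.117 and 0.9, so no share passed 0.05 in this design. With the GENCODE lengths the summed JUN family was at 168, 174 and 173 CPM per kilobase in sgp53 lines 1, 2 and 3. In sgNTC it was at 152, 156 and 166 CPM per kilobase, so the groups lay apart by a narrow margin, with no test made. The margin holds for these lengths only, as the longer RefSeq span of Jund would lower the sgp53 sums more than the sgNTC sums. With that span the sum of sgp53 line 1 would fall below that of sgNTC line 3, and the groups would overlap. For comparison, levels of 36.8% of all tested genes did not overlap. Shares of 1 family sum to 100%, so they do not vary independently.

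**Figure D3:**
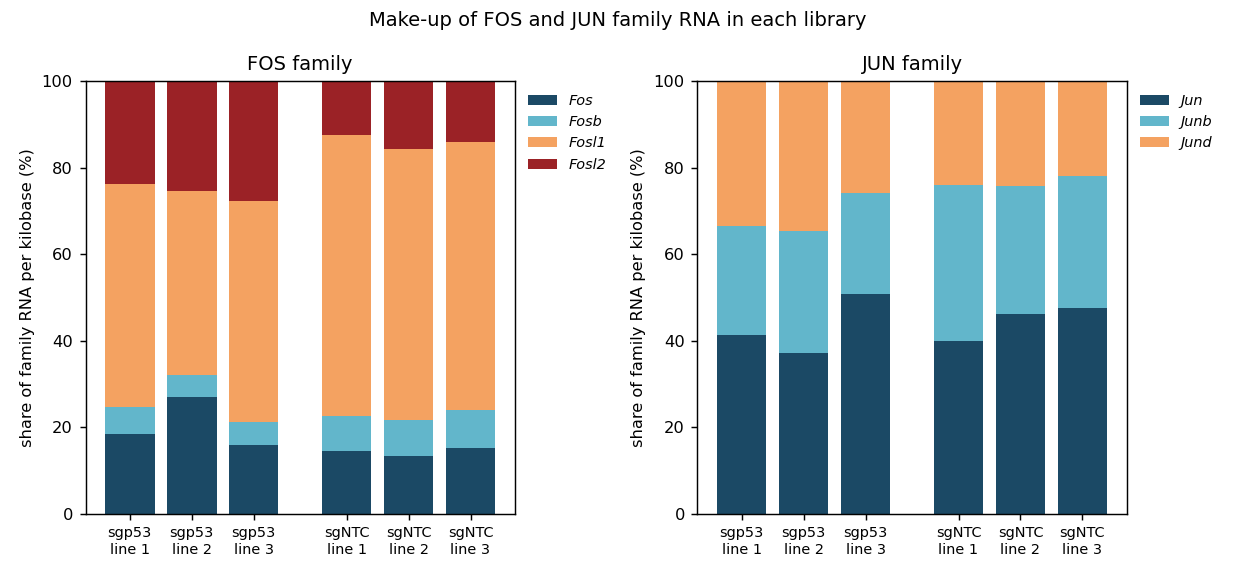
Share of each gene in the RNA of its family, as a percent of summed CPM per kilobase, in each sgp53 and sgNTC library (bars stacked to 100%). Fosl2 takes 25.7% on average in sgp53 and 14.1% in sgNTC, and Jund 31.3% and 23.5%.

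The other genes of the pathway were read from lists of partners, early genes, upstream kinases and targets. These lists were drawn up with earlier results of these data known, so their called shares are a description only. No test was made over a list. Outside the 10 genes the lists held 149 genes in the table, of which 135 were tested and 17 called (12.6%), 8 higher and 9 lower. Over all tested genes edgeR called 841 (6.45%). With the line as a block 6 genes of the lists were called, and 311 (2.38%) of all tested genes. Without sgp53 line 1, 2 or 3 the lists held 2, 4 and 3 called genes, and all tested genes 146, 374 and 342. Without sgNTC line 1, 2 or 3 the lists held 14, 10 and 3, and all tested genes 700, 293 and 133.

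Among 41 tested immediate early genes outside the set, 6 were higher and 3 lower in sgp53, 22.0% called against 6.45% of all tested genes, and the median log2 fold change was 0.02. Btg2, an antiproliferative gene and known p53 target, was at 19.7 ± 4.13 CPM in sgp53 and 75.6 ± 15.3 CPM in sgNTC (log2 fold change -1.94, edgeR adjusted p = 0.00859). Dusp6, the phosphatase that switches off ERK, was at 279 ± 23.5 CPM in sgp53 and 463 ± 55.2 CPM in sgNTC (-0.73, edgeR adjusted p = 0.0193). The kinase Sik1 was at 30.7 ± 1.25 CPM in sgp53 and 15.2 ± 3.22 CPM in sgNTC (1.02, edgeR adjusted p = 0.0229, or 0.0626 with the line as a block). The other called genes, named after their values were seen, were Plk3, lower, and Myc, Ptgs2, Nr4a1, Nr4a3 and Ier5l, higher. The called genes thus moved in both directions, as the called members did. With the line as a block, where 2.38% of all tested genes were called, Nr4a1 was called higher. Btg2, Dusp6 and the phosphatase gene Dusp5 were called lower. Dusp5 was not called without the block (edgeR adjusted p = 0.0642, or 0.0290 with it), and Sik1, Plk3, Myc, Ptgs2, Nr4a3 and Ier5l lost their calls (0.0562 to 0.0825). Leaving out sgp53 line 1, 2 or 3 gave 0, 1 and 1 calls higher and 1, 1 and 1 lower. Calls over all tested genes fell as well, from 841 to 146, 374 and 342.

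Upstream of the factors edgeR called 1 gene. Of 20 tested Ras-MAPK cascade genes 0 were called by edgeR, 2 by DESeq2 and 0 by limma-voom. Over all tested genes the 3 tools called 6.45%, 18.2% and 5.35%. Nras, a Ras gene, was at 159 ± 11.6 CPM in sgp53 and 156 ± 7.43 CPM in sgNTC. Of 16 JNK and p38 cascade genes, the p38-activated kinase Mapkapk3 was lower, with 26.1 ± 2.79 CPM in sgp53 and 47.8 ± 6.06 CPM in sgNTC (log2 fold change -0.87, edgeR adjusted p = 0.0180, or 0.0676 with the line as a block). In the same list DESeq2 called 6 genes, all lower, where it called 9% of all genes lower, and limma-voom called 1. The list's median was -0.18, against -0.01 over all tested genes.

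Cofactors and partners gave no call in edgeR. Over all tested genes edgeR called 6.45%, DESeq2 18.2% and limma-voom 5.35%. Of 13 genes for SRF, its ETS-type partners and the EGR corepressors, 0 were called, with 1 called by DESeq2 and 0 by limma-voom. Nab2, a corepressor of EGR proteins, was at 312 ± 67.8 CPM in sgp53 and 226 ± 32.4 CPM in sgNTC, and the coactivator Ep300 at 271 ± 29.9 CPM in sgp53 and 266 ± 11.1 CPM in sgNTC. Of 16 other leucine zipper partners 0 were called, with 4 called by DESeq2 and 0 by limma-voom. Among them Atf4, the stress response factor, was at 418 ± 13.7 CPM in sgp53 and 349 ± 29.998 CPM in sgNTC, and Nfe2l1 at 294 ± 12.9 CPM in sgp53 and 265 ± 4.67 CPM in sgNTC. Of 9 genes that act on the turnover of FOS and JUN protein or RNA 0 were called, with 1 called by DESeq2 and 0 by limma-voom. Hnrnpd, which binds AU-rich RNA, was at 367 ± 14.9 CPM in sgp53 and 336 ± 5.83 CPM in sgNTC, and Khsrp at 247 ± 14.9 CPM in sgp53 and 247 ± 6.25 CPM in sgNTC.

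Genes known as AP-1 targets were called in both directions. Of 23 tested, 3 were higher and 5 lower in sgp53 (34.8% called), and the list's median was 0.16 on the log2 scale. The EGF-family ligand Areg was at 7.39 ± 2.50 CPM in sgp53 and 34.8 ± 4.56 CPM in sgNTC (log2 fold change -2.24, edgeR adjusted p = 0.0111). Plaur, the urokinase receptor, was at 111 ± 8.40 CPM in sgp53 and 170 ± 17.8 CPM in sgNTC (-0.62, edgeR adjusted p = 0.0223, or 0.0728 with the block). Vegfa was at 169 ± 9.52 CPM in sgp53 and 130 ± 4.64 CPM in sgNTC (0.38, edgeR adjusted p = 0.0249, or 0.0788 with the block). Named after their values were seen, Plau, Krt18 and Tgfb1 were also lower and Ptgs2 also higher. Krt18 is an epithelial keratin, and the epithelial markers given above were lower in sgp53 as a sum, with 0 of 3 tested markers called; their part in this list was not tested. With the line as a block 1 target was higher and 1, Areg, lower, while Plau, Krt18, Tgfb1 and Ptgs2 lost their calls (edgeR adjusted p = 0.0534 to 0.0785). That fit called 2.38% of all tested genes. Leaving out sgp53 line 1, 2 or 3 gave 0, 0 and 0 calls higher and 0, 2 and 1 lower. Those fits called 146, 374 and 342 of all tested genes, against 841 with all 6 libraries.

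**Figure D4:**
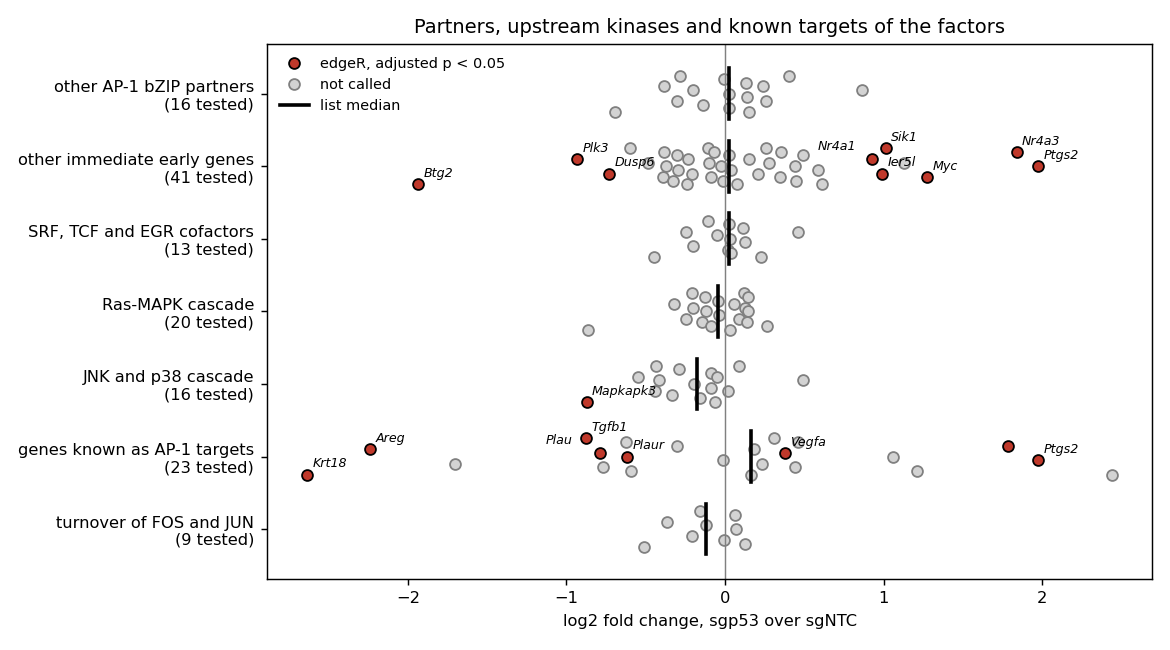
Log2 fold change of sgp53 over sgNTC for each tested gene of the related lists (points, red where the edgeR adjusted p was under 0.05, most of these with their names) with the list median (black bar). Called genes lie on both sides of 0 among the 41 immediate early genes and the 23 AP-1 targets, and Mapkapk3 is the single called kinase of the MAPK lists.

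Genes with the profile most like Egr1 or Fosl1 were found by Pearson correlation of log2 CPM over the 6 libraries, among 9407 other genes of at least 10 CPM. The libraries share lines and groups, so r is a description. Closest to Egr1 were Gipc1 (r = 0.995), Rufy2 (r = 0.994) and Arhgap27 (r = 0.994). Arhgap27 was at 7.27, 7.87 and 6.07 CPM in sgp53 lines 1, 2 and 3, and at 17.3, 20.2 and 20.7 CPM in sgNTC. Closest to Fosl1 were Ube3a (r = 0.995), Golt1b (r = 0.988) and Apln (r = 0.984). Apln, the ligand apelin, was at 16.9, 16.0 and 26.4 CPM in sgp53 lines 1, 2 and 3, and at 29.6, 27.5 and 21.5 CPM in sgNTC, with line 3 alone higher in sgp53, the order also seen for Fosl1.

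**Figure D5:**
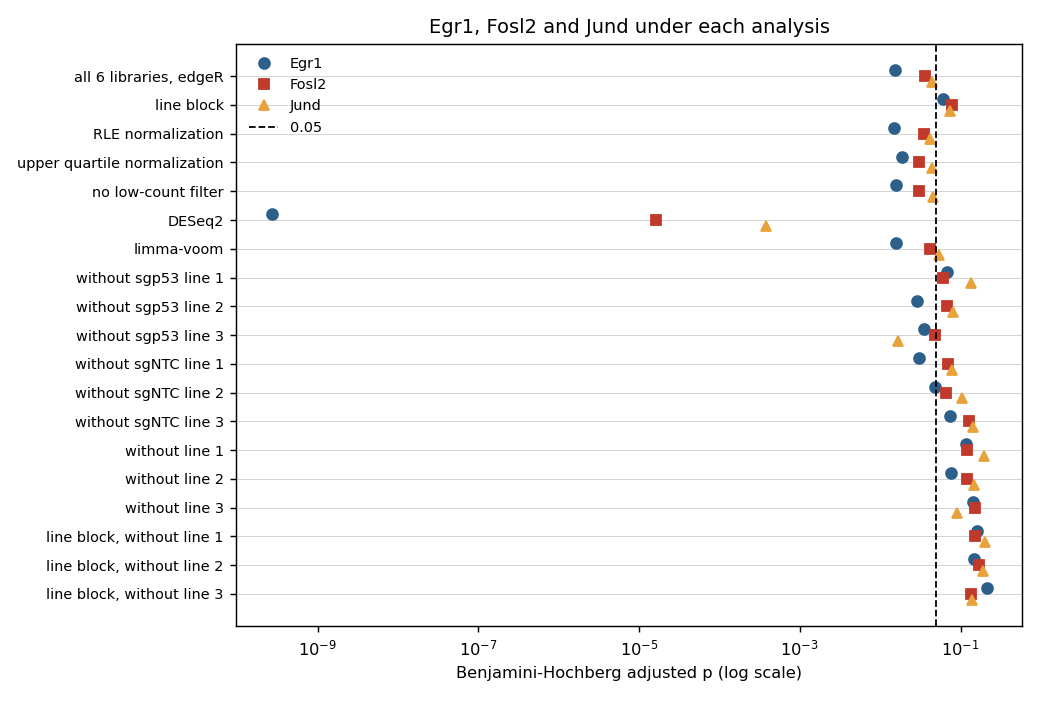
Adjusted p (log scale) of Egr1, Fosl2 and Jund under each analysis, with the threshold of 0.05 dashed. All 3 lie left of the line in edgeR with 6 libraries under each normalization and without sgp53 line 3, and right of it with the line as a block and without any whole line.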

How the data were processed

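RNA was sequenced from 6 libraries, 3 of sgp53 and 3 of sgNTC cells, made from 1 µg of total RNA of integrity above 8.0 with a stranded TruSeq kit, per the labels' protocols. The authors deposited raw read counts by gene symbol. Per the submitters' processing notes, the tools were CASAVA 1.8, STAR and DESeq2, and the build mm10, without roles. No source used here gives the counter, the annotation or the strand setting. The table held 0 columns of unknown samples.

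Differences were tested in R 4.3.3 with edgeR 4.0.16 (TMM, filterByExpr, quasi-likelihood F-test, 4 residual degrees of freedom, Benjamini-Hochberg adjustment over all tested genes). Log2 CPM within a line used a prior count of 2. Alternatives used DESeq2 1.42.0, limma 3.58.1 (voom), other scalings, no filter, the line as a block and fewer libraries. The scripts were tested on simulated data. By the labels, an sgp53 and an sgNTC library with 1 number come from 1 cell line, so they form a pair, although deviations from the group means correlated at only 0.0893, 0.00177 and -0.0272 for lines 1, 2 and 3. Within a group the chi-square per degree of freedom between libraries was 18.3 to 48.8, so none was a repeat of another.

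Named genes were Trp53, Cdkn1a, the 10 members, up to 3 called genes of smallest adjusted p per related list (or the 2 most abundant where none was called), and the 3 genes closest to Egr1 and to Fosl1; some genes of the related lists are not reported here. Members and lists were chosen with earlier results of these data known. Coordinates are GENCODE M21 on GRCm38, the assembly mm10 denotes.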

Additional observations from a re-analysis of the deposited data

Results flagged for a closer look

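For 5 of the 10 genes the difference between sgp53 and sgNTC took opposite signs in different lines. With 1 library per guide in a line these differences between lines were not tested. The within-line log2 differences of Ier3 were -0.03, 0.87 and -0.33 in lines 1, 2 and 3, a gap of 1.20 between the highest and the lowest line. Those of Egr2 were -0.10, 0.47 and 0.98, a gap of 1.07. Those of Fosl1 were -0.54, -0.61 and 0.19, a gap of 0.80. Those of Junb were -0.38, 0.09 and -0.32, a gap of 0.46. Those of Jun were 0.19, -0.15 and 0.15, a gap of 0.34.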

How the results depend on the processing

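RLE and upper quartile scaling, no low-count filter and leaving out sgp53 line 3 each left Egr1, Fosl2 and Jund called, and limma-voom called Fosb, Fosl2 and Egr1. The line as a block gave 0 called members, 6 called genes in the related lists and 311 over all genes, 273 of them shared with the 841 of the fit without it. Among other named genes the block ended the calls of Sik1, Plk3, Myc, Ptgs2, Nr4a3, Ier5l, Mapkapk3, Plau, Plaur, Krt18, Tgfb1 and Vegfa, gave one for Dusp5, and kept those of Btg2, Dusp6, Nr4a1, Areg, Trp53, Cdkn1a and Arhgap27. Gipc1, close to Egr1 in profile and called without the block, lost its call (0.106). Col1a1, Col1a2 and Col3a1 kept theirs. DESeq2 gave 5, 39 and 2367, with 840 shared. Leaving out 1 library gave 0 to 3 called members, 2 to 14 called genes in the related lists and 133 to 700 over all genes. Leaving out a line gave 0 members, 0 to 2 related genes and 19 to 64 over all genes, and with the block 0 members, 0 to 3 related genes and 126, 0 and 13 over all genes without lines 1, 2 and 3. The sign of 8 of the 10 fold changes held in all 18 alternatives. Without a library or line Jun ranged from -0.0727 to 0.179, negative without sgp53 line 3 (-0.0727) and without sgNTC line 1 (-0.03). Ier3 ranged from -0.17 to 0.43, negative without sgp53 line 2 (-0.04), without line 2 (-0.17) and with the block and without line 2 (-0.17). The share of Jun, a difference of -1.45 percentage points, was 0.0702 with RefSeq lengths and -5.27 to 1.49 without 1 library, positive without sgp53 line 2 (1.49) and sgNTC line 3 (0.0842). The cause was not tested. Other shares kept their sign, and that of Fos ranged from 2.81 to 8.37 percentage points without 1 library, lowest without sgp53 line 2. Egr2 ranged from 0.15 to 0.78 without a library or line, lowest without sgp53 line 3. The median log2 fold change over all genes lay between -0.01 and 0.01 in each alternative. With 3 lines, differences inside the intervals given for each gene could not be resolved.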
